A study of Mus musculus with 4 samples.

Results

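Plasma cells, recognised by transcripts of the immunoglobulin kappa constant region (Igkc) and of the joining chain (Jchain), were looked for in the scar that fills a cortical lesion 21 days after injury (21 dpi). The measurement was spatial: brain slices lay on Visium capture areas, glass squares covered with barcoded spots, and every spot gave the number of unique molecular identifiers (UMIs, counted RNA molecules) of each gene. A spot covers a small region that can hold several cells of different types, or part of one. Scar spots were those with at least 5 Col1a1 UMIs per 10000 and at least 1000 UMIs in all, and among them a spot with at least 5 UMIs per 10000 of Igkc plus Jchain is called high here and a spot with under 1 is called low. This gave 293 high spots, 259 low spots and 288 spots between the thresholds, 840 scar spots of 4672 tissue spots in 4 slices. The whole series held 9340 tissue spots in 8 slices.

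All 4 slices came from mice with a photothrombotic (PT) injury, a light-induced clotting of cortical vessels, taken at 21 dpi. A pair of slices on one capture area was wild type (WT), and a pair on another was Cthrc1(creER); R26(DTA), called deleter, in which Cre under the promoter of the fibroblast gene Cthrc1 should switch on diphtheria toxin in those cells. Each slice was taken as 1 mouse, since there are as many slices as mice in the methods, and each genotype filled 1 capture area, so genotype and area cannot be told apart. The study set the deleter mice of this spatial experiment aside because it detected no deletion in them. In other experiments with deleter mice, the paper reported larger lesions and less lesional matrix, and called these effects modest. In the sums used here Cthrc1 had 3 to 34 UMIs. Per 1000000 UMIs of a sum (CPM), Cthrc1 stood at 28.6 and 19.3 in high and 15.8 and 19.7 in low spots of the WT slices, and at 10.6 and 15.2 in high and 8.96 and 10.2 in low spots of the deleter slices, lower in both deleter slices and untested. The numbers 1 and 2 only name the slices. Because the rule for scar spots reads Col1a1 alone, it also took spots at the edge of the tissue, which were 10.0% to 34.5% of the high and 26.9% to 40.9% of the low spots of a slice.

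Plasma cells are the end stage of the B lineage: they stop dividing, drop most B cell surface genes and turn their endoplasmic reticulum over to the secretion of antibody. The joining chain links antibodies of the IgA and IgM classes into multimers. In bone marrow and gut, plasma cells persist beside stromal cells that make the chemokine Cxcl12, and their entry into inflamed tissue is linked to chemokines such as Cxcl9 and Cxcl10, which interferon induces and the receptor Cxcr3 reads. The brain normally holds few plasma cells, and most of those lie in the meninges.

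The high spots were chosen by Igkc and Jchain, so their levels are descriptions only. Igkc stood at 34.4, 38.4, 28.0 and 44.8 UMIs per 10000 in the high spots of WT slice 1, WT slice 2, deleter slice 1 and deleter slice 2, and Jchain at 8.09, 9.18, 6.39 and 10.3. Low spots held 0.203, 0.266, 0.314 and 0.339 UMIs per 10000 of both genes together, which is 10 to 28 UMIs in each slice. The lowest high spot of each slice had between 5.03 and 5.32 per 10000, and the highest spot under that threshold between 4.64 and 4.99. At the lower threshold, the highest low spot lay between 0.929 and 0.997 and the next spot above it between 1.00 and 1.06.

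A few spots carried much of the signal. In WT slice 1 a single spot held 671 of the 1784 Igkc and Jchain UMIs of all high spots (37.6%), in WT slice 2 900 of 3203 (28.1%), in deleter slice 1 597 of 2915 (20.5%) and in deleter slice 2 1370 of 12369 (11.1%). The 5 richest spots held 80.6% and 81.0% in the WT slices and 53.9% and 44.5% in the deleter slices. The median high spot held 15 to 19 UMIs of both genes. High spots held 90.1% to 97.7% of the Igkc and Jchain UMIs of all scar spots of their slice.

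Antibody RNA in the high spots was mostly of the IgA class. Igha, the constant region of the IgA heavy chain, made up 94.0%, 93.4%, 88.1% and 93.9% of the heavy-chain constant-region UMIs in the high spots of WT slices 1 and 2 and deleter slices 1 and 2, of 1102, 2624, 2577 and 10282 such UMIs. Ighm, the IgM heavy chain, made up 1.72%, 3.96%, 2.29% and 0.992%, and the IgG genes together 4.26%, 2.59%, 9.55% and 5.08%. All 4 slices had the same order of IgA first, but which IgG gene led differed: Ighg2c stood at 80.9 CPM against 30.9 CPM of Ighg2b in WT slice 1 and had 222 against 23 UMIs in deleter slice 1, whereas Ighg2b led in WT slice 2 (95.1 against 2.97 CPM) and deleter slice 2 (156 against 77.2 CPM). Kappa light chains made up 98.4%, 94.3%, 96.6% and 89.6% of light-chain constant-region UMIs. Igkc, the kappa constant region, helped choose the high spots, so this share is partly set by the rule. The rule also reads Jchain, which goes with IgA and IgM, so the heavy-chain shares are descriptions too. Reads of near-identical immunoglobulin genes can be split between them, so the shares within the IgG and lambda genes are uncertain.

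Of the genes that mark plasma cells and took no part in the rule, Mzb1 gave the clearest reading. It is a chaperone of antibody assembly that marks plasma cells and some B cells, and had 4, 13, 12 and 48 UMIs in the high spots of WT slices 1 and 2 and deleter slices 1 and 2, and 0, 2, 0 and 0 in the low spots. High spots therefore stood at 9.52, 19.3, 14.1 and 21.4 CPM, above the low spots of every slice. Where low spots had 0 UMIs, a limit of 3 UMIs was set for the low sum. Against that limit, the high spots stood 3.60-fold higher in WT slice 1, 4.21-fold in deleter slice 1 and 2.11-fold in deleter slice 2. These folds take the high counts as exact, so they are not lower bounds on the ratio. In WT slice 2 the ratio was 9.81 with an exact 95% counting interval of 2.22 to 89.5. That interval covers counting error only. Mzb1 did not pass the filter on low counts and so has no test beside the other genes. In the fit without that filter, which called 367 of 18913 genes, its edgeR adjusted p was 8.35e-08.

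Most other identity genes were sparse. Of 14 listed plasma cell genes, 5 passed the filter and none passed the test, with log2 fold changes of high over low spots from 0.46 (Sdc1, the surface proteoglycan CD138) to 0.91 (Tnfrsf13b, a receptor for the survival factors BAFF and APRIL) and a median of 0.61. The median over all 10132 genes tested was 0.01. Xbp1, the transcription factor that enlarges the secretory apparatus, stood at 193, 151, 196 and 175 CPM in high spots and at 121, 102, 137 and 132 CPM in low spots, a log2 fold change of 0.54 ± 0.13 (SE, 4 slices, edgeR adjusted p = 0.087). All 4 high sums of Xbp1 lay above all 4 low sums, as did those of 2.45% of all genes. The gene missed the threshold here but passed it in the fit without the filter (edgeR adjusted p = 0.0311). That fit called 367 of 18913 genes, against 36 of 10132 here. Of the other listed plasma cell genes only Mzb1 passed in it. Pou2af1, a B lineage coactivator, had 29 UMIs in all high spots and 5 in all low spots, and Derl3, of the endoplasmic reticulum, 29 and 9. Irf4 had 22 and 5, Tnfrsf17, the receptor BCMA, 11 and 4, Prdm1, the regulator Blimp-1, 31 and 25, and Fcrl5 none. Derl3, Irf4 and Tnfrsf17 were each higher in only 2 of 4 slices, and deleter slice 2 gave the largest high sum and the smallest low sum. These counts came from sums of 420240 to 2241965 UMIs in high and 295207 to 1135792 UMIs in low spots.

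Most listed genes of mature B cells were sparse. Ms4a1 (CD20) and Pax5, which plasma cells have lost, had 2 and 1 UMIs in all high spots and 1 and 0 in all low spots, and Fcer2a had none in either. Cd79a and Cd79b, also too sparse to be tested, were each higher in the high spots of 3 of 4 slices. Of 15 listed B cell genes, 4 passed the filter and none passed the test, with a median log2 fold change of 0.14. The 4 were Cd22 (0.72, 4 of 4 slices higher), Ebf1, Cd37 and Bcl6, all but the first between -0.09 and 0.23. Some of these are also expressed by myeloid or stromal cells. Beyond the genes of the rule, the label of the high spots as plasma cell spots thus rests on Mzb1, with 4 to 48 UMIs per slice. Igha is an immunoglobulin gene close to those of the rule, so its level is a description and no separate support. Both are values of sums in which a few spots carried much of the Igkc and Jchain signal. They do not show which single high spots held plasma cells.

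**Figure D1:**
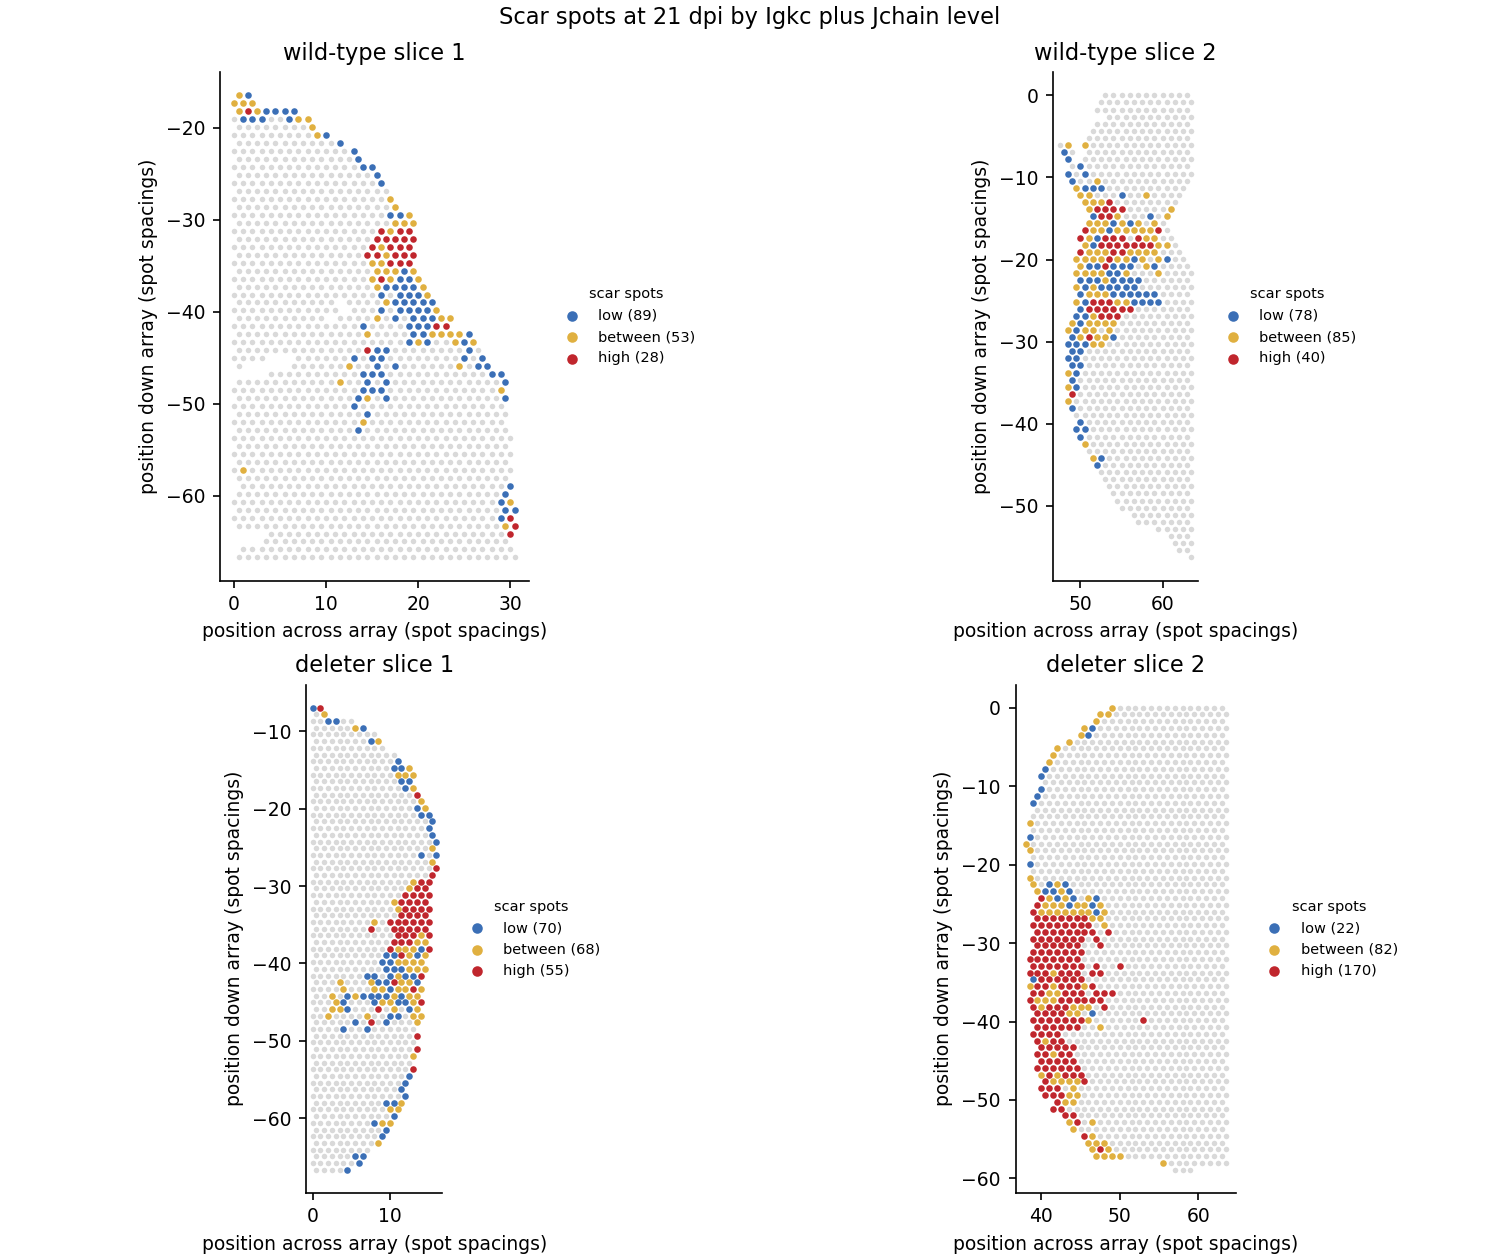
Tissue spots of the 4 slices at 21 dpi at their array positions, in spot spacings, each slice drawn at its own scale. Red spots are high (28, 40, 55 and 170), yellow spots lie between the thresholds, blue spots are low (89, 78, 70 and 22) and grey spots are outside the scar; the high spots lie in patches, the largest of them in deleter slice 2.

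High spots took different shares of the scar in the 4 slices. They were 28 of 170 scar spots in WT slice 1 (16.5%, exact 95% binomial interval 11.2% to 22.9%), 40 of 203 in WT slice 2 (19.7%, 14.5% to 25.9%), 55 of 193 in deleter slice 1 (28.5%, 22.2% to 35.4%) and 170 of 274 in deleter slice 2 (62.0%, 56.0% to 67.8%). Both deleter slices lay above both WT slices, by 27.2 percentage points on average. The intervals cover counting error only and take spots as independent, which clustered spots are not. The exact two-sided permutation p over slices was 0.333, and no smaller value can be reached with 2 slices in each genotype. Without deleter slice 2 the difference was 10.4 points. Outside the scar, high spots made up 2.11%, 0.642%, 4.74% and 8.05% of spots with at least 1000 UMIs, so 53.8%, 90.9%, 61.8% and 61.6% of all spots at that Igkc and Jchain level lay in the scar.

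At earlier times no scar spot was high. Both slices at 7 dpi had 112 and 392 scar spots, of which 0 were high, which allows shares of up to 2.68% and 0.765%, taken as 3 spots of the total. Those 504 spots held 3 and 8 Igkc and Jchain UMIs. The slices at rest and at 2 dpi had too few scar spots, 21 and 3, to say more than that none was high.

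High spots lay beside one another. The average high spot had 59.3%, 50.8%, 65.8% and 84.9% high spots among its touching scar spots in WT slices 1 and 2 and deleter slices 1 and 2, and the average low spot 3.24%, 4.76%, 7.02% and 4.76%. The mean difference of 60.2 percentage points had the same sign in 4 of 4 slices. It rests on the values that chose the spots and is a description of how they cluster. Among all other tissue spots with at least 1000 UMIs, the summed level of Igkc and Jchain fell with steps from the nearest high scar spot. It was 2.81, 2.01, 10.9 and 7.66 UMIs per 10000 at 1 step and 0.791, 0.237, 0.470 and 0.517 beyond 5 steps. Those other spots include 24, 4, 34 and 106 spots outside the scar that met the high threshold themselves. All scar spots among them lay under that threshold by the rule. Spots inside and outside the scar were summed together, so distance and lying outside the scar cannot be told apart here. Neighbouring spots can share a cell or receive RNA that spread during capture, and the part of either in these levels was not tested.

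**Figure D2:**
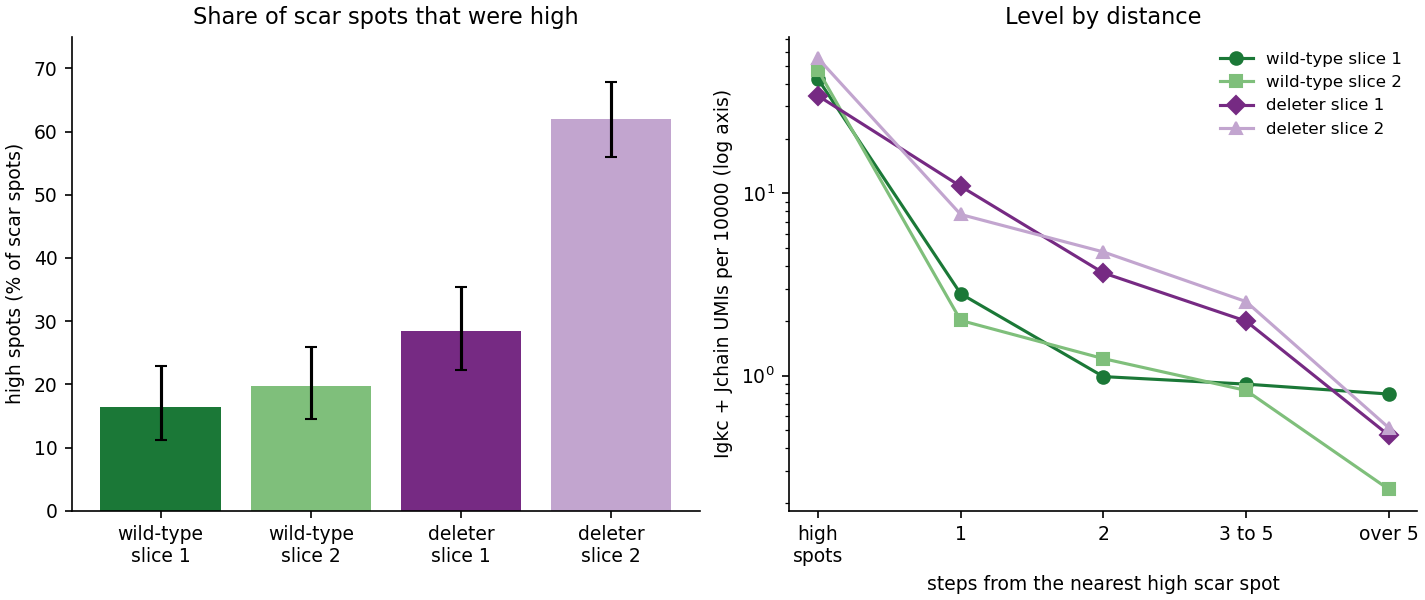
Left, share of scar spots that were high in each slice, in percent, with exact 95% binomial intervals. Right, Igkc plus Jchain UMIs per 10000 on a log axis in the high spots and in other tissue spots by steps from the nearest high scar spot. Those other spots include spots outside the scar that met the high threshold. Every slice falls from between 34.4 and 55.2 in the high spots to under 1 beyond 5 steps, and the deleter slices keep more at 1 to 5 steps. The high spots were chosen by these genes, so the drop from them to 1 step is partly set by the rule. Other spots inside and outside the scar are not separated.

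High and low spots showed no common order in distance from the tissue edge. The mean distance from the tissue edge was 2.64, 3.98, 2.80 and 4.13 spots for high spots of WT slices 1 and 2 and deleter slices 1 and 2, and 3.78, 3.40, 3.17 and 3.41 spots for low spots. The difference was negative in 2 slices and positive in 2, with a mean of -0.051 spots (exact two-sided sign-flip test, p = 1.0).

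High and low spots also differed in measures that bear on every gene. The median UMI total was 15330 against 9492 in WT slice 1, 17395 against 12958 in WT slice 2 and 14818 against 10493 in deleter slice 1, and in deleter slice 2 it was lower in high spots, 12137 against 14062. Median Col1a1, a rule gene, was 15.6 against 10.8 and 16.7 against 12.6 UMIs per 10000 in the WT slices and 34.0 against 10.4 and 32.3 against 8.07 in the deleter slices. The Col1a1 gap was widest in the deleter slices. In the sums, Col1a1 stood at 22.2 against 19.7 and 34.2 against 39.7 UMIs per 10000 in WT slices 1 and 2. In deleter slices 1 and 2 it stood at 36.3 against 19.8 and 43.3 against 24.1. Deleter slice 2 brought only 22 low spots with 295207 UMIs.

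The gene contrast asked what else was present where plasma cell RNA was, among spots of the same slice that met the Col1a1 rule. UMIs of all high and of all low spots were summed within each slice and compared with edgeR with the slice as a block, and Igkc, Jchain, Col1a1 and all other immunoglobulin genes stayed in the fit but are not counted among the genes called. Of 10132 genes, 36 passed an adjusted p of 0.05 (0.355%), 21 higher in high spots (0.207%) and 15 lower (0.148%), and 1310 had an unadjusted p under 0.05. Counts of called genes within the lists below stand against those shares of all genes. All 36 had 1 sign in 4 of 4 slices. Of all genes, 9.45% were higher and 9.59% lower in 4 of 4 slices. Of the 36, 19 had sums that did not overlap, 13 higher and 6 lower, against 5.06%, 2.45% and 2.62% of all genes. The fit that called the 36 used these same sums, so neither count is separate support for the calls. Without WT slice 1 only Sst of the 36 passed, without deleter slice 1 12 did, and without deleter slice 2 34 of 145 calls were among the 36, all 36 keeping their sign each time. Among the genes that rose were the chemokines Cxcl10, Cxcl9 and Cxcl12, the class II antigen presentation genes Cd74 and H2-Eb1, the macrophage genes Mrc1 and Lyz2, and the fibroblast genes Sfrp4 and Slc47a1. Those that fell had Sst, Amph and Gad2 in the lead, and 2 of the 15 were on the neuronal list and 1 on the astrocyte list. In bulk sums such as these, fewer cells of a type and less RNA per cell cannot be told apart.

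The largest rise was in the chemokines that draw Cxcr3-bearing cells. Cxcl10 (chr5:92346638-92348889, minus strand, GRCm38) stood at 198, 46.0, 34.2 and 29.9 CPM in the high spots of WT slices 1 and 2 and deleter slices 1 and 2, against 19.4, 21.7, 7.84 and 6.77 CPM in the low spots. These low values came from 22, 22, 7 and 2 UMIs. The log2 fold change was 2.33 ± 0.33 (SE, 4 slices, edgeR adjusted p = 0.0069), and the 4 high sums lay above the 4 low sums. WT slice 1 was far above the other slices, and without it the log2 fold change was 1.56 (edgeR adjusted p = 0.263). Cxcl10 kept its call when low spots were limited to those within 2 steps of a high spot (2.38, edgeR adjusted p = 0.0022). Deleter slice 2 had 9 low spots in that setting. Spots between the thresholds stood at 55.8, 46.4, 9.67 and 14.6 CPM, which in WT slice 2 was the level of the high spots.

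Cxcl9, the neighbouring gene on the same strand (chr5:92321347-92328079), followed it. It stood at 88.0, 77.2, 68.3 and 24.1 CPM in high spots and 12.3, 28.6, 16.8 and 16.9 CPM in low spots, with a log2 fold change of 1.87 ± 0.27 (edgeR adjusted p = 0.0079). The rise was smallest in deleter slice 2, whose high spots lay below the low spots of WT slice 2. Spots between the thresholds did not stand midway: they had 14.7, 2.58, 50.8 and 1.83 CPM, close to or under the low spots in all but deleter slice 1. Without WT slice 1 the log2 fold change of Cxcl9 was 1.52 (edgeR adjusted p = 0.156). Among spots with at least 20 Col1a1 UMIs per 10000 it was 2.56 (edgeR adjusted p = 0.0099), and Cxcl9 was the only one of the 36 genes to pass there. The receptor Cxcr3 had 23 UMIs in all high and 17 in all low spots and was not tested.

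The promoters of the interferon-induced genes Cxcl10, Gbp2 and Cxcl9 are shown because each of them passed the threshold. Some interferon-induced genes, though not all, are known to be read through an interferon-stimulated response element (ISRE). The letters searched, on both strands, were GAAA, any 2 bases and again GAAA, in the 250 bases before and 50 bases after each RefSeq start site of GRCm38.p6. Of 32851 promoters, 3.44% held it. Of the 21 genes that rose, 14 had a promoter in the RefSeq table, with 16 promoters between them. Of these 14 genes, 3 held the letters in a promoter, Cxcl10, Gbp2 and Selenop. This count is per gene and the 3.44% is per promoter, and not every start site of Selenop held a match. Each line gives the 250 bases before the start site, 5′ to 3′ on the gene's strand, with the match in capitals.
Cxcl10 (chr5:92348890-92349139, minus strand): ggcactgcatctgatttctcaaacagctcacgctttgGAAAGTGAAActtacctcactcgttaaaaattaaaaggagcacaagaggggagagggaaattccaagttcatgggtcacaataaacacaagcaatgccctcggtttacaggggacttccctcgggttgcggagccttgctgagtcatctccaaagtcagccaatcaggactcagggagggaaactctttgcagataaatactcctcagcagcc
Gbp2 (chr3:142620413-142620662, plus strand): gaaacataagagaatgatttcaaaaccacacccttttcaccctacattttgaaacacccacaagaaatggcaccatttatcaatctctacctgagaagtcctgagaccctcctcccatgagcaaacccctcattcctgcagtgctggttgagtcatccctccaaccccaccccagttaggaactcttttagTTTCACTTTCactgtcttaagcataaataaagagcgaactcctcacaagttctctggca
Cxcl9 (chr5:92328080-92328329, minus strand): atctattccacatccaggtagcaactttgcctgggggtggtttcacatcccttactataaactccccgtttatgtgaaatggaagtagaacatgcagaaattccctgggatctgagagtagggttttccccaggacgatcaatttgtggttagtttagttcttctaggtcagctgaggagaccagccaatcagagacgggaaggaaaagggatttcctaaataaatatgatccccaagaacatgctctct

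The match in Cxcl10 begins 213 bases before the start site and that in Gbp2, which lies on the opposite strand, 59 bases before it. Read on their own strands both are GAAAGTGAAA. Cxcl9 holds none in this window. The gamma-activated site, searched as TTC, any 3 bases and GAA, stood in 8.30% of all promoters and in none of the 14. These matches describe letters only.

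Cxcl12, the chemokine that holds plasma cells beside stroma through Cxcr4, rose less. It stood at 764, 532, 642 and 621 CPM in high spots of WT slices 1 and 2 and deleter slices 1 and 2, and at 427, 448, 282 and 390 CPM in low spots. The log2 fold change was 0.73 ± 0.13 (edgeR adjusted p = 0.039), and the high and low sums did not overlap. The call was lost among spots with at least 20 Col1a1 UMIs per 10000 (0.28, edgeR adjusted p = 1.0) and with low spots near high ones (0.41, edgeR adjusted p = 0.787). Its receptor Cxcr4 had a log2 fold change of 0.34 ± 0.24 (edgeR adjusted p = 0.595). Median Col1a1 also stood higher in the high spots of every slice. In the sums compared, Col1a1 was lower in the high spots of WT slice 2 (3419 against 3967 CPM) and higher in those of the other slices. The part of Col1a1 in the rise of Cxcl12 was not tested.

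Of the 37 listed genes of recruitment, adhesion and survival, 18 passed the filter. Those 3 chemokines rose and none fell, against 0.207% and 0.148% of all genes. The median log2 fold change was 0.39, against 0.01 over all genes. Cd80, a costimulatory ligand (1.37 ± 0.40), Itga4, an adhesion receptor of plasma cells (0.95 ± 0.32), Tgfb1, a switch factor for IgA (0.74 ± 0.23), Icam1 (0.62 ± 0.19) and the chemokine Cxcl16 (0.43 ± 0.14) had edgeR adjusted p-values between 0.160 and 0.212 and did not pass. Of these, Tgfb1 was higher in 3 of 4 slices and the others in 4 of 4. Tnfsf13, the survival factor APRIL, had 0.27 ± 0.18 and was higher in 4 of 4 slices without passing. Vcam1 (0.18), Ccl19 (0.23), Ackr3 (0.28), Cd86 (0.48), Flt3l (0.30), Il6st (0.15), Il6ra (0.08) and Ltbr (-0.07) did not pass either. The other 19 had too few UMIs to be tested: Il6, Il5, Il21 and Pigr had none in high or low spots, Tnfsf13b (BAFF) had 32 in high and 17 in low, and Cxcl13, which organises B cell follicles, 8 and 3. The chemokine Ccl28 and its receptor Ccr10, which guide IgA plasma cells to mucosa, had 0 and 11 in high and 2 and 4 in low spots. Ccl21a had 13 and 8 UMIs in the high spots of deleter slices 1 and 2 and none in any other sum.

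**Figure D3:**
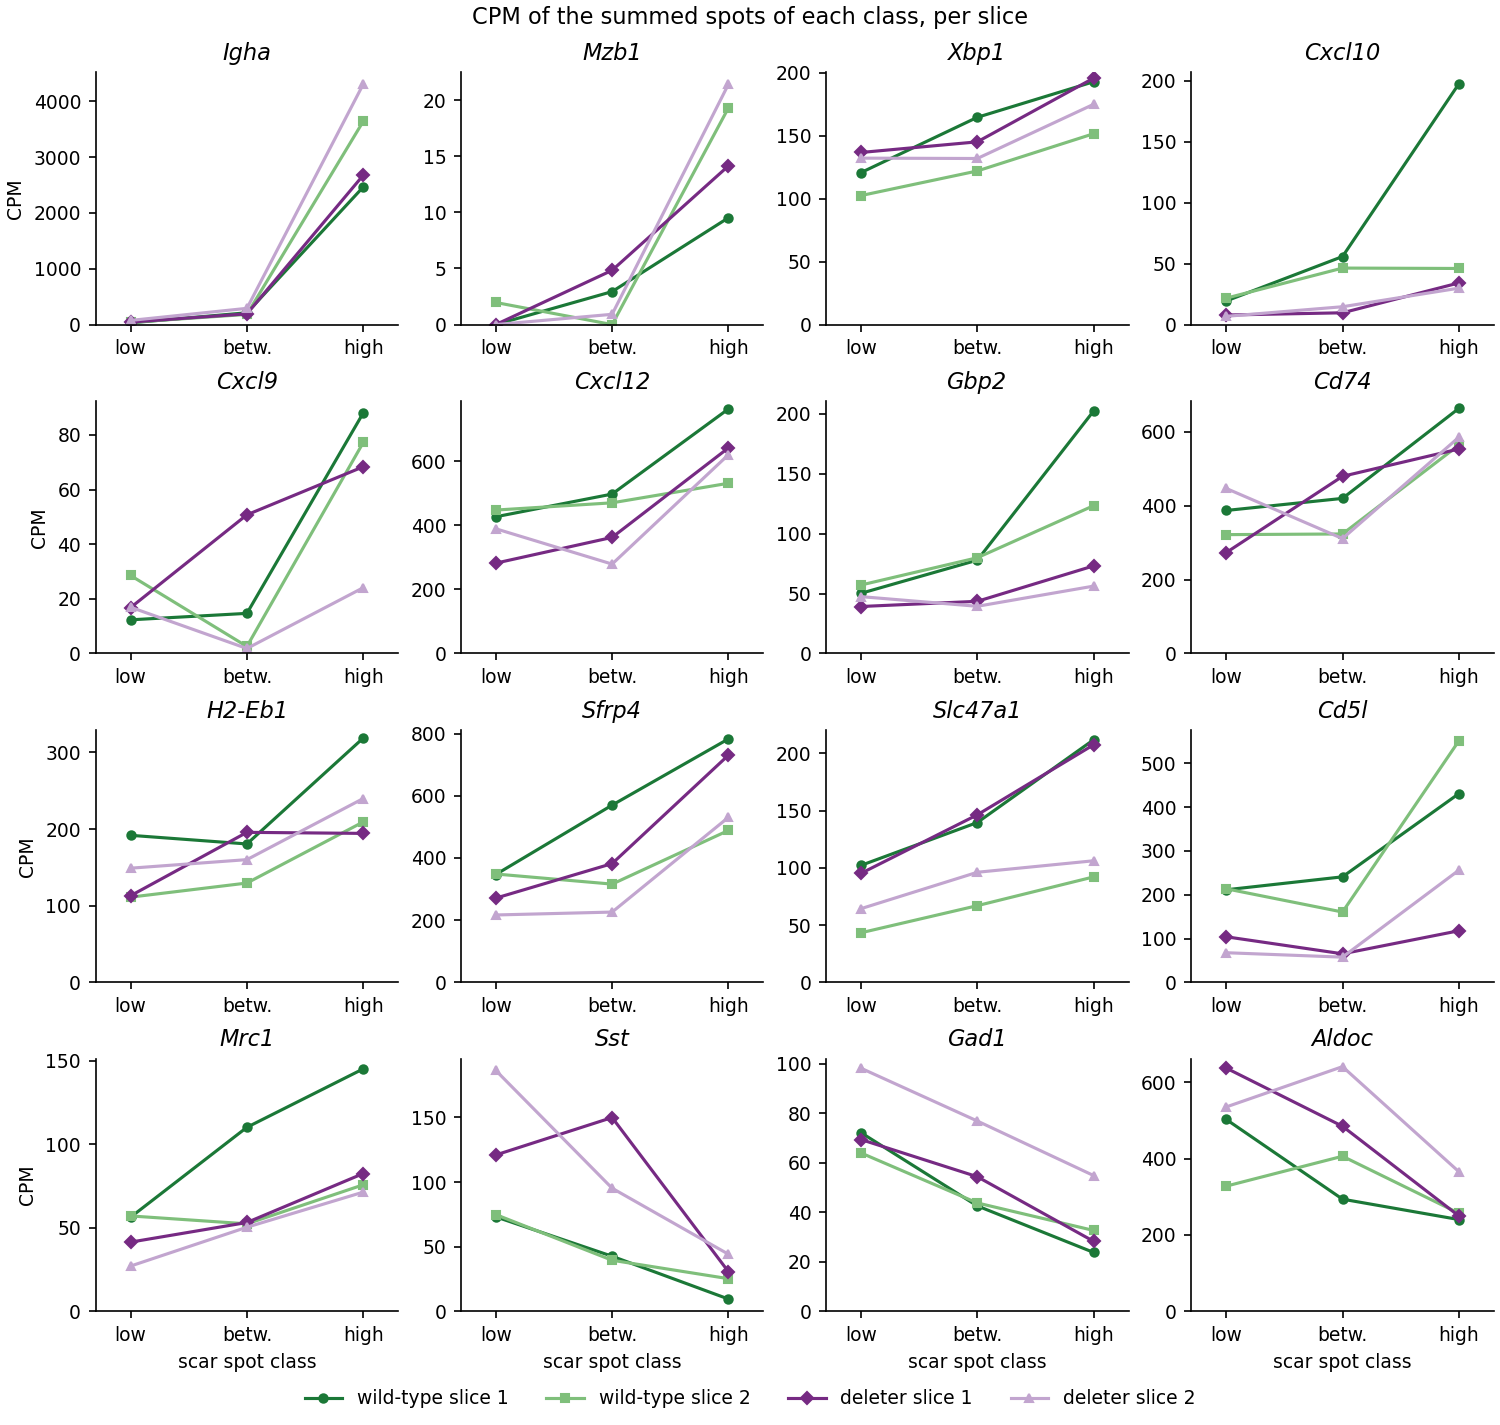
CPM of 16 genes in the summed low, between (betw.) and high scar spots of each slice, with 1 line per slice and each panel on its own axis from 0. Igha and Mzb1 rise steeply in the high spots, the chemokines, class II genes, Sfrp4, Slc47a1, Cd5l and Mrc1 end above their low spots in every slice, and Sst, Gad1 and Aldoc end below.

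Antigen presentation genes of class II rose as a pair. Cd74, the invariant chain that escorts class II molecules, stood at 664, 564, 554 and 586 CPM in high spots and 387, 322, 273 and 447 CPM in low spots (log2 fold change 0.75 ± 0.12, edgeR adjusted p = 0.012). H2-Eb1, a class II beta chain, stood at 319, 209, 194 and 240 against 192, 111, 113 and 149 CPM (0.78 ± 0.12, edgeR adjusted p = 0.013). High and low sums of neither gene overlapped, though for H2-Eb1 the lowest high sum lay just above the highest low sum. H2-Ab1 (0.60, edgeR adjusted p = 0.059) and H2-Aa (0.64, edgeR adjusted p = 0.068) were higher in 4 of 4 slices and missed the threshold. Of the 9 genes tested in the class II and dendritic list, 2 rose and none fell, against 0.207% and 0.148% of all genes. The dendritic genes Itgax (0.03) and Fscn1 (-0.14) did not pass. Siglech, also on the microglia list, ran the opposite way without passing (-0.90, higher in 1 of 4 slices).

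Among 18 genes of class I presentation and interferon response, all 18 had a positive log2 fold change, as had 5211 of all 10132 genes. Their median was 0.59, but 1 passed. This was Gbp2, an interferon-induced guanylate-binding protein, at 202, 123, 73.1 and 56.2 CPM in high and 50.2, 57.1, 39.2 and 47.4 CPM in low spots (1.20 ± 0.23, edgeR adjusted p = 0.039). The high sum of deleter slice 2 lay below the low sum of WT slice 2, so the groups overlapped. Ifit1 had 1.51 (edgeR adjusted p = 0.059), Igtp 1.06 (0.11) and Isg15 1.03 (0.12), all higher in 4 of 4 slices, as were 9.45% of all genes. Irf1 (0.31) was higher in 3 of 4 slices.

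Of the macrophage genes, Mrc1 and Lyz2 rose. Mrc1, the mannose receptor CD206, stood at 145, 75.7, 82.5 and 71.4 CPM in high and 56.3, 57.1, 41.4 and 27.1 CPM in low spots (0.99 ± 0.19, edgeR adjusted p = 0.042). Lyz2, lysozyme, stood at 6464 to 8819 CPM against 4332 to 6289 CPM, without overlap (0.51 ± 0.10, edgeR adjusted p = 0.042), although its log2 fold change was -0.020 among spots with at least 20 Col1a1 UMIs per 10000. Of 15 macrophage genes tested, 2 rose and none fell, against 0.207% and 0.148% of all genes, with a median of 0.36. Stab1 (0.64, edgeR adjusted p = 0.059), Folr2 (0.83) and Pf4 (0.71) did not pass. Neither did Cd68 (0.28), Adgre1 (0.14), Cd14 (-0.13) and Csf1r (-0.14, higher in 1 of 4 slices). Of the 15, 13 had a positive log2 fold change, as had 5211 of all 10132 genes. In the list of scar- and disease-associated macrophages, none of 15 passed, and Trem2 (0.10), Apoe (0.11), Gpnmb (0.12) and Spp1 (0.33) had small changes around a median of 0.11. Homeostatic microglia genes had a median of -0.23 with none passing.

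Further genes that rose were on none of the lists. Cd5l, a secreted protein of tissue macrophages that binds IgM, stood at 431, 551, 118 and 256 CPM in high and 211, 214, 104 and 67.7 CPM in low spots (1.08 ± 0.20, edgeR adjusted p = 0.039). Its high sum in deleter slice 1 lay below the low sums of both WT slices. Ccl6, a macrophage chemokine (0.99 ± 0.14, edgeR adjusted p = 0.0074), Wfdc17 (0.89 ± 0.13, edgeR adjusted p = 0.0074) and Cfp, the complement stabiliser properdin (1.22 ± 0.21, edgeR adjusted p = 0.027), also rose. Selenop, a selenium carrier (0.57), Ly6e (0.55) and Ly6a (0.72) had smaller rises. Kcne4, a potassium channel subunit, had the third largest rise (1.57 ± 0.29, edgeR adjusted p = 0.039) from low levels, 13.4 to 42.8 CPM against 6.77 to 13.2 CPM. Car13, a carbonic anhydrase (1.28), Lima1 (0.82) and Csrp2 (0.76), both of the actin cytoskeleton, rose as well.

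Of the fibroblast matrix genes, 1 stood out. Sfrp4, a secreted Wnt inhibitor, stood at 783, 489, 731 and 531 CPM in high and 347, 349, 271 and 217 CPM in low spots (1.08 ± 0.14, edgeR adjusted p = 0.0038), with no overlap. Of the other 32 matrix genes tested none passed, and the median over all 33 was 0.34. Dcn (0.40), Col3a1 (0.34), Postn (0.09), Fn1 (0.20) and Cthrc1 (0.38) lay near or under that median. Col14a1 (0.86), Fbln1 (0.73), Timp1 (0.71, edgeR adjusted p = 0.059) and Lox (0.66) lay above it without passing. The change of Sfrp4 was 2.04 (edgeR adjusted p = 4.45e-07) among spots with 5 to under 20 Col1a1 UMIs per 10000 and 0.19 (edgeR adjusted p = 1.0) among spots with at least 20. Slc47a1, a transporter of meningeal fibroblasts, stood at 212, 92.1, 207 and 106 against 102, 43.3, 95.2 and 64.4 CPM (1.02 ± 0.14, edgeR adjusted p = 0.0069) and was 1 of 18 meningeal genes tested to pass. Other genes of that list ran the opposite way without passing, Slc6a13 (-1.16), Myoc (-1.41), Slc22a6 (-1.41) and Ptgds (-0.88), each lower in 4 of 4 slices. The summed level of the 20 meningeal genes was lower in high spots of every slice. It was 8724 against 10159 and 7411 against 8422 CPM in WT slices 1 and 2. In deleter slices 1 and 2 it was 7686 against 15338 and 5772 against 19163 CPM.

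T cell genes were sparse. Of 26 listed, 5 passed the filter, none passed the test, and their median was 0.69: Nkg7 had 1.42 (edgeR adjusted p = 0.11), Trbc1 0.80, Trbc2 0.69, Ccl5 0.60 and Il7r 0.31. The summed level of the 26 genes was higher in high than in low spots of every slice, 302 against 145, 221 against 138, 338 against 157 and 168 against 142 CPM. No list of endothelial, mural, complement, neutrophil and mast cell or proliferation genes had a member past the threshold. The complement list did not hold Cfp, the complement stabiliser that rose. Only 4 of the 12 proliferation genes could be tested, with a median of 0.07, and the medians of the others were 0.13, -0.02, 0.20 and -0.29 in the order endothelial, mural, complement, and neutrophil and mast cell. The genes of the endoplasmic reticulum and secretion, which a plasma cell uses most, had a median of 0.21 with 45 of 46 tested and none past the threshold. In that list 38 of 45 were positive, against 5211 of all 10132 genes. Of the 45, 17 were higher in 4 of 4 slices, as were 9.45% of all genes. Txndc11 (0.55), Txndc5 (0.53) and Syvn1 (0.51) lay highest beside Hspa5 (0.26), Hsp90b1 (0.16) and Ssr4 (0.25).

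**Figure D4:**
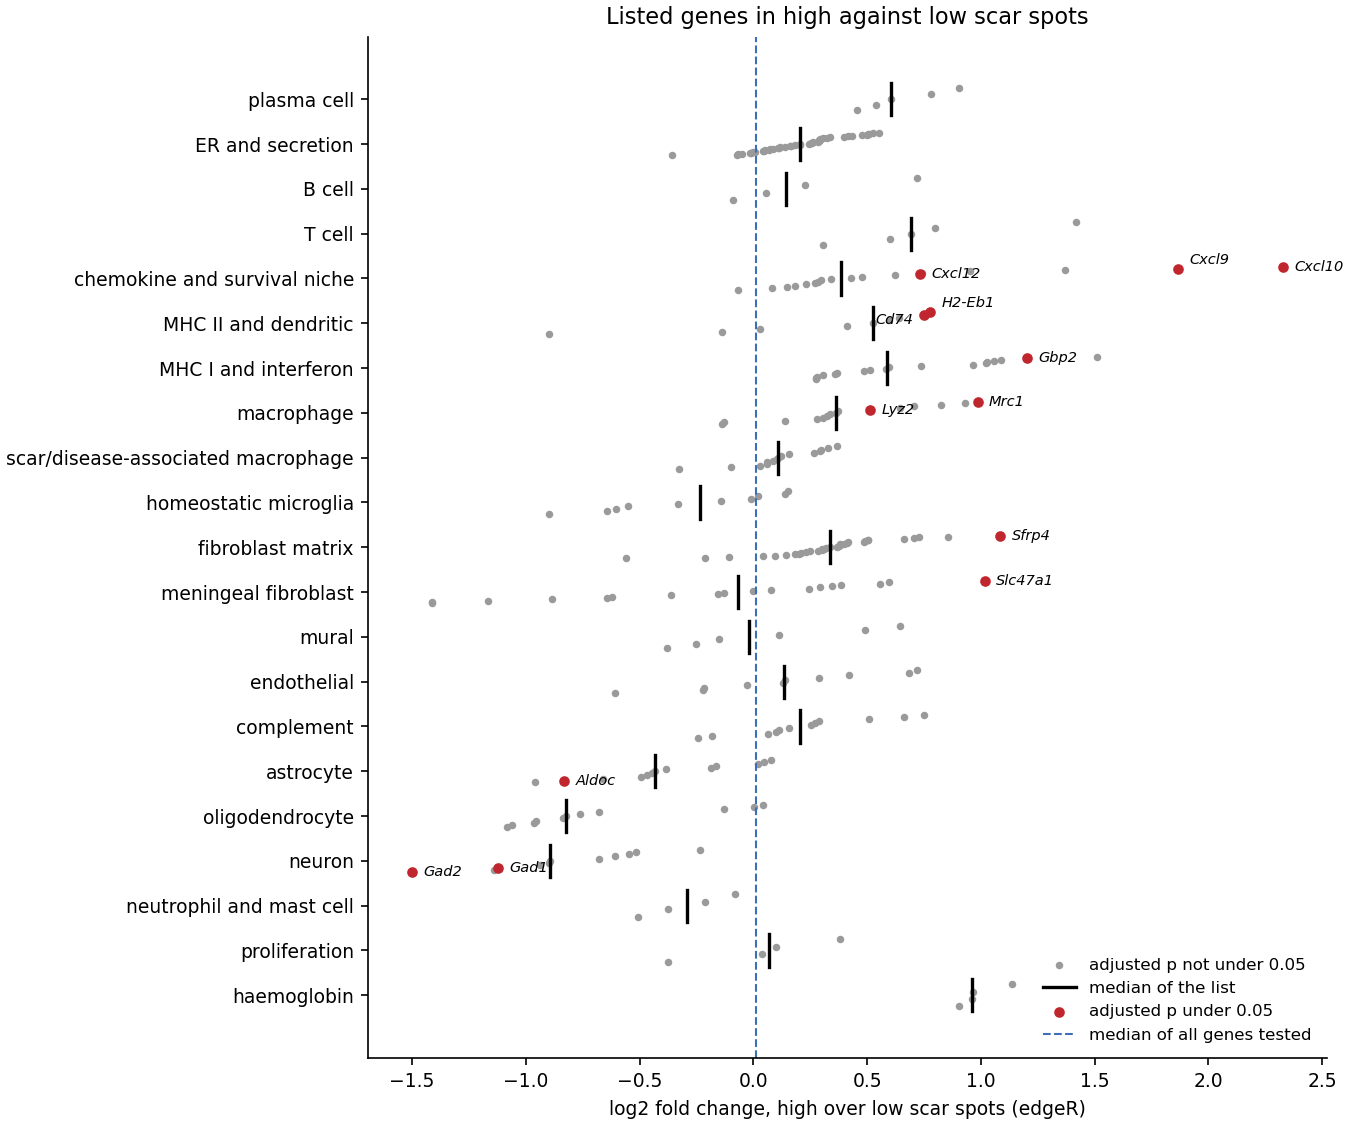
Log2 fold change of high over low scar spots for every tested gene of 21 lists, in edgeR, with red points for adjusted p under 0.05. Black bars are the medians of the lists, from -0.89 for neurons to 0.96 for haemoglobin, and the dashed line is the median of all genes, 0.01. The haemoglobin genes did not run 1 way in all slices: Hbb-bs was higher in high spots of the WT slices and lower in those of the deleter slices.

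Sst and the GABA enzymes were lower in high spots. Sst, the peptide somatostatin of an interneuron class, stood at 9.52, 25.2, 30.6 and 44.2 CPM in high and 73.1, 74.8, 121 and 186 CPM in low spots (log2 fold change -2.02 ± 0.19, edgeR adjusted p = 0.00013). High and low sums did not overlap, and Sst kept its call without any 1 slice. The enzymes of GABA synthesis, Gad2 (-1.50 ± 0.25, edgeR adjusted p = 0.022) and Gad1 (-1.12 ± 0.19, edgeR adjusted p = 0.022), fell with it. All 11 neuronal genes tested were negative, as were 4921 of all 10132 genes, and the list median was -0.89. Of the 11, 9 were lower in 4 of 4 slices, as were 9.59% of all genes. Amph (-1.58) and Snap91 (-1.16), of the presynaptic terminal, and Ddn (-1.39), Cnih2 (-1.17), Psd (-1.17) and Gabrb1 (-1.15), of the postsynaptic side, also fell, as did Baalc (-1.06), Ncald (-0.97) and Gpm6a (-0.83). Of the astrocyte genes 1 of 13 fell, Aldoc (-0.83 ± 0.16, edgeR adjusted p = 0.042), and Ndrg2 (-0.65), which is on no list, fell too, while oligodendrocyte genes had a median of -0.82 with none passing.

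The summed level of the neuronal list was lower in high spots, with little difference in deleter slice 2. The summed level of the 12 neuronal genes was 1035 against 2002, 1117 against 1809 and 1045 against 2260 CPM in WT slices 1 and 2 and deleter slice 1, and 2354 against 2392 CPM in deleter slice 2. With low spots limited to those within 2 steps of a high spot, the log2 fold change of Sst was -1.03 (edgeR adjusted p = 0.799) and that of Gad1 -0.23 (edgeR adjusted p = 1.0). In that setting 6 genes passed, all higher: Cxcl10, Slc47a1, Ccn3 and 3 haemoglobin genes. With all low spots, none of the 4 haemoglobin genes tested was higher in 4 of 4 slices. What part the makeup of the spots has in the genes that rose was not tested.

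**Figure D5:**
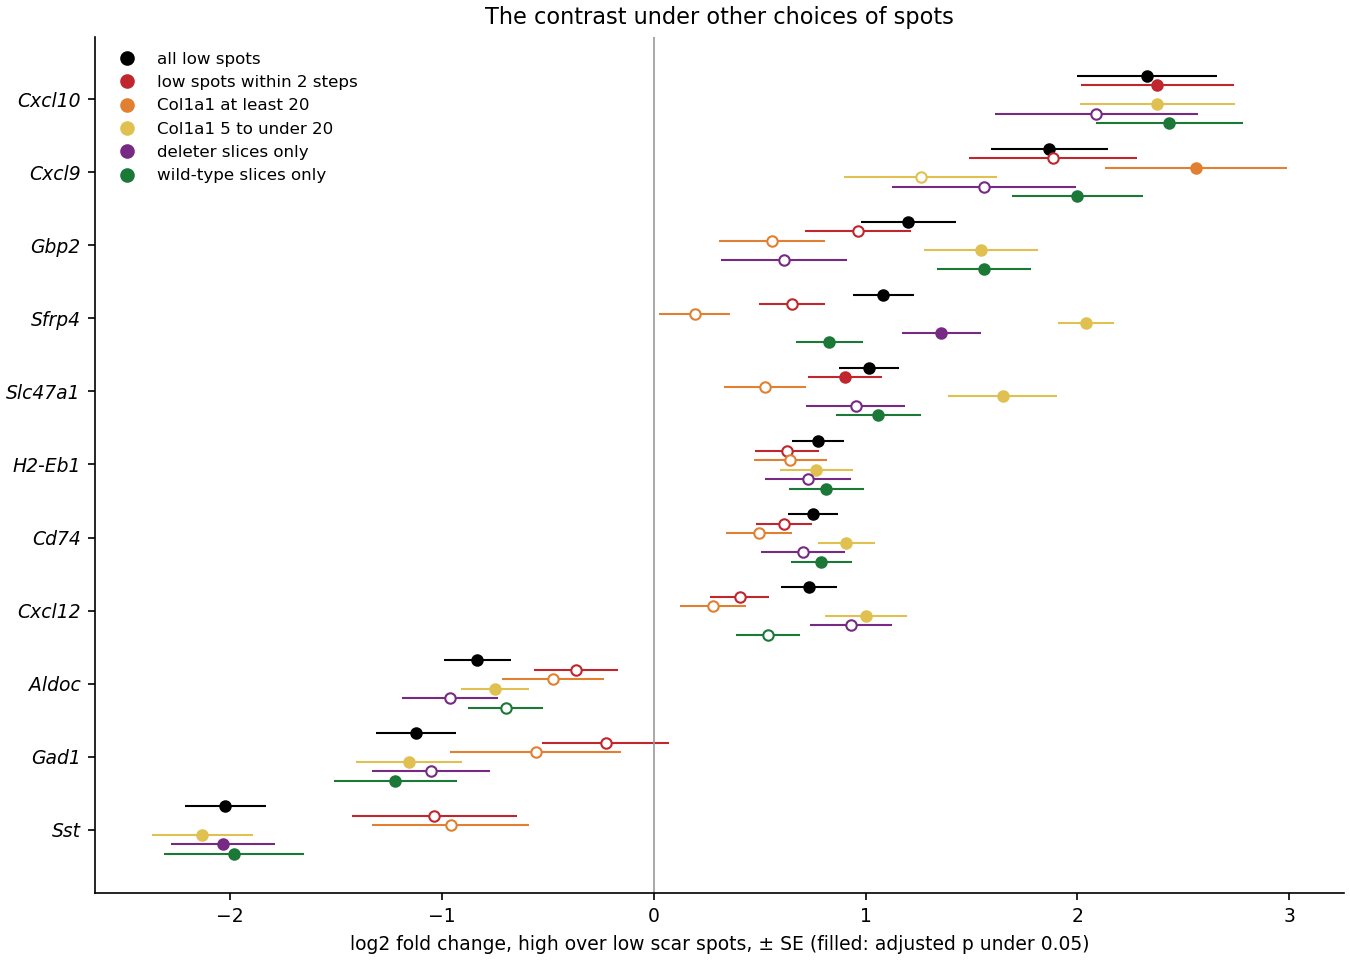
Log2 fold change of high over low scar spots, ± SE, for 11 genes under 6 choices of spots or slices; filled points have an edgeR adjusted p under 0.05. Cxcl10 stays above 2 in all 5 choices where it was tested, whereas Sfrp4, Cxcl12, Sst and Gad1 move towards 0 with near low spots or with at least 20 Col1a1 UMIs per 10000.

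Whether the contrast differed between genotypes was tested by an interaction term. Of 10132 genes, 1 passed (0.00987%), and 414 had an unadjusted p under 0.05. It was Hbb-bs, a beta-globin of red cells, at 493 and 1090 CPM in high against 123 and 420 CPM in low spots of the WT slices, and at 31.8 and 14.7 against 71.7 and 23.7 CPM in the deleter slices. The difference of the log2 fold change was -2.70 ± 0.36 (edgeR adjusted p = 0.038). High spots thus held more Hbb-bs RNA than low spots in both WT slices and less in both deleter slices. The Hbb-bs low sum of deleter slice 2 had 7 UMIs. Hba-a1 (-3.09), Hba-a2 (-2.52) and Hbb-bt (-2.46) had differences of the same sign and did not pass. Hba-a2 and Hbb-bt were not lower in the high spots of deleter slice 2. Each stood there at 3.57 against 3.39 CPM, from 8 UMIs in high and 1 in low spots. The summed level of the 6 listed blood genes was 833 and 1879 CPM in the high spots of the WT slices and 49.5 and 31.7 CPM in those of the deleter slices, and its part in the genes that rose was not tested.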

How the data were processed

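Spatial transcriptomes of 4 capture areas with 2 slices each were used. Per the labels and methods, the authors aligned reads to mm10 with Space Ranger 2.0.0; the values deposited are UMI counts, not normalized, for every gene in each spot, and spot positions come with them. No deconvolution or doublet call was applied. Connected tissue pieces were taken as slices. UMIs of high and low spots were summed per slice and fitted in edgeR 4.0.16 (TMM, filterByExpr, quasi-likelihood F test, slice as a block, Benjamini-Hochberg over all 10140 fitted genes, of which 8 rule and immunoglobulin genes are not counted). High and low sums of a slice share a mouse, which is where the pairing comes from. SE is the log2 fold change over the square root of F. CPM divides by the UMIs of a sum. Single values were compared by exact tests. Distance was counted in steps between touching spots, from 1 at the tissue edge.

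Depth was 295207 to 2241965 UMIs per sum. In counts simulated at a dispersion of 0.02 over 9899 genes with 200 changed, edgeR recovered 5.97% of 1.5-fold, 58.2% of 2-fold and 95.5% of 4-fold changes with 2.75% false calls; small changes are mostly missed.

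Spot rule, gene lists and tests were chosen with earlier results of these data known. Named genes were every plasma cell, B cell and niche gene, up to 3 genes past the threshold per direction of each other list, and the 10 largest rises and falls of 1 sign in 4 slices; others were chosen after their values were seen. Alternatives covered DESeq2 1.42.0, filters, scaling, thinning, spot thresholds, genotypes and each slice left out; sums within 3 Col1a1 ranges were added after seeing the data. Promoters on chromosome 18 were left out. Positions are from GENCODE M21, matched by identifier for 118 of 118; Ccl19 and Ccl21a have 2 identifiers, of which the one with UMIs was used. Values of some single genes are not reported here.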

Additional observations from a re-analysis of the deposited data

Results flagged for a closer look

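The contrast of Hbb-bs differed between genotypes, with a log2 fold change in deleter minus WT slices of -2.70 by an interaction term (edgeR adjusted p = 0.038, both WT slices higher and both deleter slices lower). It was called in DESeq2, without the low-count filter, with at least 5000 UMIs per spot, without deleter slice 2 and without WT slice 1, and lost without deleter slice 1, without WT slice 2 and with high spots from 10 UMIs per 10000.

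Of 60 genes whose log2 ratios of high over low spots were compared over the 4 slices, 4 had 1 slice far from the other 3; chance gives about 1 in 20. Car13 had 1.66 in WT slice 2, against 1.09 to 1.12 elsewhere. Wfdc17 had 0.47 there against 1.01 to 1.11, and Ndrg2 had -0.42 there against -0.74 to -0.69. Cd37 had 0.82 in deleter slice 1 against -0.36 to -0.16. No cause was tested.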

How the results depend on the processing

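The count of 36 genes past the threshold depended on the spots and slices compared. No replicate block left 1 gene (Sfrp4), so most calls rest on pairing high and low sums of a slice. DESeq2 gave 21 (9 higher, 12 lower, 15 shared), no filter on low counts 367 (128 higher, 239 lower, all 36 shared), at least 5000 UMIs per spot 23, high spots from 10 UMIs per 10000 400, low spots at 0 UMIs 420, at least 20 Col1a1 UMIs per 10000 2 (Cxcl9 and Myoc), 5 to under 20 Col1a1 UMIs 113 (89 higher), low spots near high ones 6, WT slices only 82 and deleter slices only 4. Sums within Col1a1 ranges, added after seeing the data, gave 7 of 3860 genes. Leaving out 1 slice gave 2 to 145: 2 without WT slice 1, 19 without deleter slice 1 and 145 without deleter slice 2. RLE scaling (37) and immunoglobulin genes left out (32) stayed within 1.5 times. Thinning to 1000 UMIs gave 27 of 908 genes tested; of the 36 genes 13 could be tested there and 5 passed. Causes were not tested, beyond fewer genes or slices entering some fits.

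The genotype difference of 1 gene became 32 without a filter and 2 with at least 5000 UMIs, and 0 to 21 with a slice left out, with 0 without WT slice 2, 4 without WT slice 1, 20 without deleter slice 1 and 21 without deleter slice 2. The share and neighbour differences kept their sign in every alternative run. The distance from the edge, -0.051 spots, was 0.0559 with at least 20 Col1a1 UMIs and -0.309 to 0.309 with a slice left out (positive without WT slice 1 and without deleter slice 1).

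Of the 36 genes, the sign turned only at 20 Col1a1 UMIs, for Lyz2 (-0.020) and Gpm6a (0.14). Genes that had not passed turned as follows. At 20 Col1a1 UMIs these were Cd37 (-0.13), Cxcr4 (-0.38), Il6st (-0.043), Ccl19 (-0.44) and Flt3l (-0.24), and with near low spots Sdc1 (-0.00422), Cd37 (-0.41), Il6ra (-0.038) and Ccl19 (-0.074). In WT slices only they were Sdc1 (-0.18), Cd37 (-0.26), Il6ra (-0.83) and Ccl19 (-0.038), and in deleter slices only Ackr3 (-0.17) and Vcam1 (-0.00976). Thinning turned Il6st (-0.34), dropping the block Ebf1 (-0.066), low spots at 0 UMIs Bcl6 (0.30) and Ltbr (0.027), and 5 to under 20 Col1a1 UMIs Bcl6 (0.064). With a slice left out, Sdc1 ran from -0.023 to 0.76, Cd37 from -0.22 to 0.18, Bcl6 from -0.21 to 0.037 and Il6ra from -0.31 to 0.37.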
